A study of Mus musculus with 15 samples.

Results

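The genes described here are 40 T-cell and NK-cell genes, chosen by symbol as markers of the T-cell receptor, its coreceptors and signalling proteins, and the cytotoxic programme shared by CD8 T-cells and NK-cells. All 40 were listed among 16470 genes in DMSO and 39 among 16428 genes in ibrutinib, where Ifng was not listed, of 17029 genes in either table. The study cultured cells from leukemic spleens for 24 h and sequenced their RNA, in 15 libraries. Cells came from Eμ-TCL1 mice (3 libraries in DMSO, replicates 2, 3 and 4, and 3 in ibrutinib, replicates 1, 3 and 4) or from Eμ-TCL1;p53R172H/+ mice, which carry the same transgene and 1 mutant Trp53 allele (5 in DMSO, replicates 1 to 5, and 4 in ibrutinib, replicates 1, 3, 4 and 5). All mice were on a C57BL/6 background, DMSO was the vehicle, and ibrutinib is a covalent inhibitor of BTK, a kinase of the B-cell receptor pathway. The transgene drives TCL1 in the B lineage, whereas the Trp53 allele was bred through the germline, so T-cells and NK-cells of the p53R172H/+ mice carry it too. The cells were released from the spleens by mechanical disruption, with no B-cell sort stated, and the age of the mice used for these cultures is not given in the sources used here.

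T-cells recognise antigen with a receptor whose signal is passed on by the CD3 chains (Cd3e, Cd3d, Cd3g) and by CD3ζ (Cd247), to the kinases Lck and Zap70 and the adaptors Lat and Lcp2. CD4 T-cells help B-cells, among other ways through CD40 ligand (Cd40lg), regulatory T-cells are a CD4 subset that needs Foxp3, and CD8 T-cells and NK-cells kill target cells with perforin (Prf1), granzymes and Fas ligand (Fasl). In a leukemic spleen these cells are residents among the malignant B-cells, and in bulk RNA fewer cells of a type and less RNA per cell cannot be told apart.

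The 3 CD3 chain genes lie side by side on mouse chromosome 9 (GRCm38), Cd3g from 44969572 to 44980431 on the minus strand, Cd3d from 44981786 to 44987339 on the plus strand and Cd3e from 44998740 to 45009627 on the minus strand, and Cd8a lies on chromosome 6 from 71373427 to 71379173 on the plus strand. The 250 bases before the RefSeq start of each (GRCm38.p6) are shown because these genes encode the CD3 chains and the CD8 coreceptor, whose levels define T-cell RNA in the values that come next. They span chr9:44980432-44980681 for Cd3g, chr9:44981536-44981785 for Cd3d, chr9:45009612-45009861 for Cd3e and chr6:71373177-71373426 for Cd8a, and are written 5′ to 3′ on the strand of the gene. Capitals mark letters found for 5 motifs of T-cell transcription factors, searched on both strands. The ETS motif was searched as AGGAAG, the RUNX motif was searched as TGTGGT, the GATA motif was searched as AGATAA, the TCF/LEF motif was searched as CTTTGA and the E-box was searched as CAGNTG.
Cd3g: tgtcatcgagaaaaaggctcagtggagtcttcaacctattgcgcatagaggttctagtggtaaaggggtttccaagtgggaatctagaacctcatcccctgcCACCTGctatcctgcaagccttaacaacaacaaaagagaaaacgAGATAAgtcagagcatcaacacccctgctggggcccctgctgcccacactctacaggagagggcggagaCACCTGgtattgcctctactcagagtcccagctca
Cd3d: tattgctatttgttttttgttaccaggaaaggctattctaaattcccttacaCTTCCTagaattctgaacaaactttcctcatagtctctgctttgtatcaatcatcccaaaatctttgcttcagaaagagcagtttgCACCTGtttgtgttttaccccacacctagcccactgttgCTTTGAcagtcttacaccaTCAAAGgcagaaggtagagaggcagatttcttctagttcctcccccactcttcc
Cd3e: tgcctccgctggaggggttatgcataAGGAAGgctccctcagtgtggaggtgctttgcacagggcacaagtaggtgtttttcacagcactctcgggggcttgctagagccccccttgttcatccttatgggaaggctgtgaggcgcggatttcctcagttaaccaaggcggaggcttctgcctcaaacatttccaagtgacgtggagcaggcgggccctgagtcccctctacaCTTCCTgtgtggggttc
Cd8a: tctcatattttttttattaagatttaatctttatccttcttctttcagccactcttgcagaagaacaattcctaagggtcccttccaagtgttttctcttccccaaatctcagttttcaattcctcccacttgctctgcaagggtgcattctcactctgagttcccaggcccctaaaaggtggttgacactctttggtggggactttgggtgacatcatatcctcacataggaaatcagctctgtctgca

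Cd3g held the GATA letters 104 bases before the start and the E-box letters at 2 places, Cd3d held TCF/LEF letters at 2 places and the ETS and E-box letters at 1 place each, and Cd3e held the ETS letters at 2 places, with no overlap between motifs. None of the 5 was found in the Cd8a window. Of the 40 genes 27 matched an entry by symbol, and among these 27 the ETS letters were found in 14 (51.9%, against 29.5% of all 32851 windows of the same length), the RUNX letters in 6 (22.2% against 14%), the GATA letters in 3 (11.1% against 9.99%), the TCF/LEF letters in 6 (22.2% against 13.8%) and the E-box letters in 20 (74.1% against 44.8%). A gene of the 27 was counted if any of its windows held the letters, whereas the background is the share of single windows, so the shares are not fully alike. These matches describe the letters of the windows and are not evidence of binding.

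Levels are the authors' normalized CPM, gene counts divided by a library size that was scaled within each table, and are given in the order of the replicate numbers above. The summed level of the 40 genes was 944.4, 455.9 and 1422.4 normalized CPM in the Eμ-TCL1 libraries in DMSO and 8865.8, 10377.1, 694.2, 590.8 and 694.7 in the p53R172H/+ libraries. In ibrutinib the sum over the 39 listed genes was 834.3, 463.7 and 1490.1 normalized CPM in Eμ-TCL1 and 6038.5, 4135.0, 2063.7 and 2541.1 in p53R172H/+. Thus 3 libraries stood apart, p53R172H/+ replicates 1 and 2 in DMSO and replicate 1 in ibrutinib, in which these genes made up 0.919%, 0.834% and 0.798% of the column total against 0.036% to 0.506% in the other 12.

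The same 3 libraries, called T-cell-rich here, were poor in B-cell RNA although the samples are labelled B-cells. The summed level of 9 B-cell markers (Cd79a, Cd79b, Ms4a1, Pax5, Cd22, Btk, Blnk, Ebf1 and Blk), all of which were listed, was 254.9, 257.8 and 62.7 normalized CPM in them, against 3105.1 to 4319.1 in the other p53R172H/+ libraries in DMSO, 524.5 to 1395.8 in the other p53R172H/+ libraries in ibrutinib and 442.1 to 5814.0 in Eμ-TCL1. Eμ-TCL1 replicate 2 in DMSO and replicate 1 in ibrutinib were also low in these markers (550.8 and 442.1) and were rich in myeloid markers (29031.4 and 20467.2 summed over 9 genes, against 24.7 to 1152.1 elsewhere) and in erythroid and platelet markers (14133.8 and 11958.6 over 7 genes, against 15.9 to 221.8). Trp53 itself, whose mutant allele is still transcribed and which therefore does not check the genotype, ranged from 22.7 to 67.0 normalized CPM. All Eμ-TCL1 libraries had Xist, expressed in females, at 868.7 to 1991.8 and Ddx3y, on the Y chromosome, at 0.0. Replicates 3 and 5 of p53R172H/+ in DMSO and 5 in ibrutinib were similar (Xist 837.6 to 1491.3, Ddx3y at most 0.1). The other p53R172H/+ libraries, among them all T-cell-rich ones, had Xist at 0.2 to 1.2 and Ddx3y at 75.1 to 177.3. Sex is thus partly mixed with genotype in each comparison and cannot be fully told apart from it. Each genotype comparison is given with all libraries and without the T-cell-rich ones. The libraries left out are those in which most of these genes were highest. For such genes the second value is lower in p53R172H/+ by construction. For genes that are low in those libraries, such as Cd4, Foxp3 and Cd40lg, it is higher by construction.

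**Figure D1:**
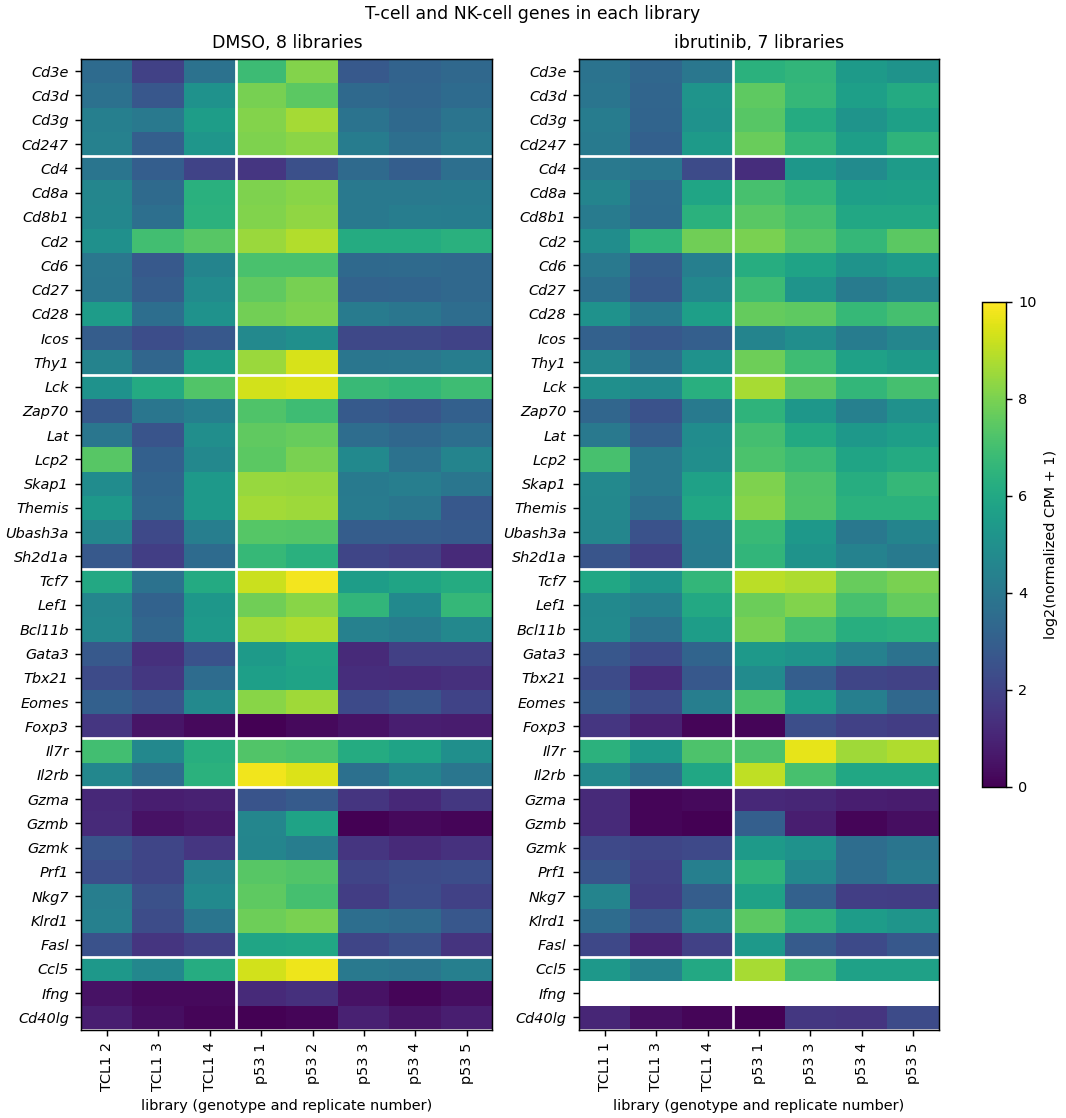
Level of each T-cell and NK-cell gene (rows, grouped by role and separated by white lines) in each library (columns, genotype and replicate number, with a white line between genotypes), as log2(normalized CPM + 1). The columns p53 1 and p53 2 in DMSO and p53 1 in ibrutinib are bright for most genes and dark for Cd4, Foxp3 and Cd40lg; Ifng has no row of values in ibrutinib.

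The receptor genes gave the widest view of this spread. In DMSO, Cd3e was 10.2, 2.8 and 12.8 normalized CPM in Eμ-TCL1 and 113.5, 282.9, 6.0, 8.2 and 9.3 in p53R172H/+. Cd3d was 12.1, 5.5 and 33.5 in Eμ-TCL1 and 245.5, 177.6, 9.6, 8.6 and 10.4 in p53R172H/+. Replicates 1 and 2 of p53R172H/+ were above all others, while replicates 3, 4 and 5 lay within the Eμ-TCL1 range for both genes, so the groups overlapped. Cd3g followed with 18.9, 15.7 and 46.7 in Eμ-TCL1 and 284.4, 397.6, 13.1, 9.7 and 13.3 in p53R172H/+. Cd247 was 19.9, 7.1 and 36.7 in Eμ-TCL1 and 269.1, 307.5, 17.2, 11.7 and 15.6 in p53R172H/+. For Cd3g, unlike the other 3, replicates 3, 4 and 5 of p53R172H/+ were all below the lowest Eμ-TCL1 library. The log2 changes from Eμ-TCL1 to p53R172H/+ were 1.81 ± 1.29 (SE) for Cd3e, 1.28 ± 1.28 for Cd3d, 0.92 ± 1.34 for Cd3g and 1.44 ± 1.24 for Cd247, and none passed the test (limma on log2(value + 1), smallest adjusted p of the 4 = 0.656). Without the T-cell-rich libraries they were 0.06, -0.45, -0.96 and -0.24, none past the test.

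In ibrutinib the receptor genes of p53R172H/+ were high in every library and not only in replicate 1. Cd3e was 13.0, 9.0 and 14.8 normalized CPM in Eμ-TCL1 and 82.0, 96.0, 42.2 and 34.5 in p53R172H/+. Cd3d was 13.7, 8.6 and 35.1 in Eμ-TCL1 and 184.1, 99.8, 49.1 and 67.3 in p53R172H/+. Both groups were separate for each gene, and replicate 3 of p53R172H/+ was the highest of all for Cd3e. Cd3g was 17.5, 8.4 and 33.1 in Eμ-TCL1 and 169.2, 70.7, 35.0 and 50.5 in p53R172H/+. Cd247 was 16.3, 7.4 and 42.4 in Eμ-TCL1 and 206.5, 97.4, 47.8 and 88.7 in p53R172H/+. All 4 genes were again separate, with the Eμ-TCL1 maximum in replicate 4. The log2 changes were 2.19 ± 0.39 (SE) for Cd3e, 2.38 ± 0.57 for Cd3d, 1.93 ± 0.61 for Cd3g and 2.40 ± 0.64 for Cd247, with unadjusted p-values of 0.000725 to 0.015, and none passed after adjustment in limma (adjusted p = 0.165 to 0.324). Without replicate 1 of p53R172H/+ they were 2.02, 2.03, 1.5 and 2.03, so the size of the difference did not rest on that library.

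Among the coreceptors, CD8 genes and Cd4 went separate ways. In DMSO, Cd8a was 22.8, 10.1 and 79.4 normalized CPM in Eμ-TCL1 and 266.2, 298.1, 15.4, 15.4 and 16.4 in p53R172H/+. Cd8b1, its partner chain, was 23.8, 11.6 and 84.8 in Eμ-TCL1 and 277.9, 323.6, 15.7, 17.7 and 17.2 in p53R172H/+. Cd4 was 13.9, 6.9 and 3.0 in Eμ-TCL1 and 2.0, 4.4, 10.1, 6.9 and 11.7 in p53R172H/+. The 3 libraries with the most CD8 RNA, the T-cell-rich ones and Eμ-TCL1 replicate 4, thus had the least Cd4. The log2 changes in DMSO were 0.90 ± 1.24 (SE) for Cd8a, 0.88 ± 1.24 for Cd8b1 and -0.13 ± 0.59 for Cd4, and none passed the test (limma, adjusted p = 0.807, 0.810 and 0.949).

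In ibrutinib, Cd8a was 21.8, 10.9 and 57.2 in Eμ-TCL1 and 134.9, 96.6, 49.3 and 50.3 in p53R172H/+. Cd8b1 was 16.8, 10.6 and 81.6 in Eμ-TCL1 and 173.3, 129.9, 62.9 and 62.5 in p53R172H/+. Cd4 was 15.5, 14.1 and 3.9 in Eμ-TCL1 and 1.5, 38.7, 27.3 and 43.7 in p53R172H/+. Replicates 3, 4 and 5 of p53R172H/+ had more Cd4 than any Eμ-TCL1 library, and the T-cell-rich replicate 1 had the least of all 7. Replicate 4 of Eμ-TCL1 was above replicates 4 and 5 of p53R172H/+ for both CD8 genes, so these groups overlapped. The log2 change of Cd4 was 0.82 ± 1.05 (SE) with all libraries and 1.79 ± 0.50 without the T-cell-rich library (limma, adjusted p = 0.739 and 0.373), and that of Cd8a was 1.61 ± 0.59 and 1.33 ± 0.60 (adjusted p = 0.356 and 0.552).

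On a scale that allows genes to be compared, normalized CPM per kb of exon, Cd4 made up 0.673% and 1.31% of the sum of Cd4 and Cd8a in the T-cell-rich libraries in DMSO and 0.993% in that in ibrutinib. In Eμ-TCL1 replicate 4 the share was 3.3% in DMSO and 5.79% in ibrutinib. The other 10 libraries had 26.5% to 53.9%, with p53R172H/+ and Eμ-TCL1 intermixed. The T-cell-rich libraries thus held Cd8a RNA with very little Cd4 RNA, whereas p53R172H/+ replicates 3, 4 and 5 in ibrutinib held RNA of Cd4 and of Cd8a.

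**Figure D2:**
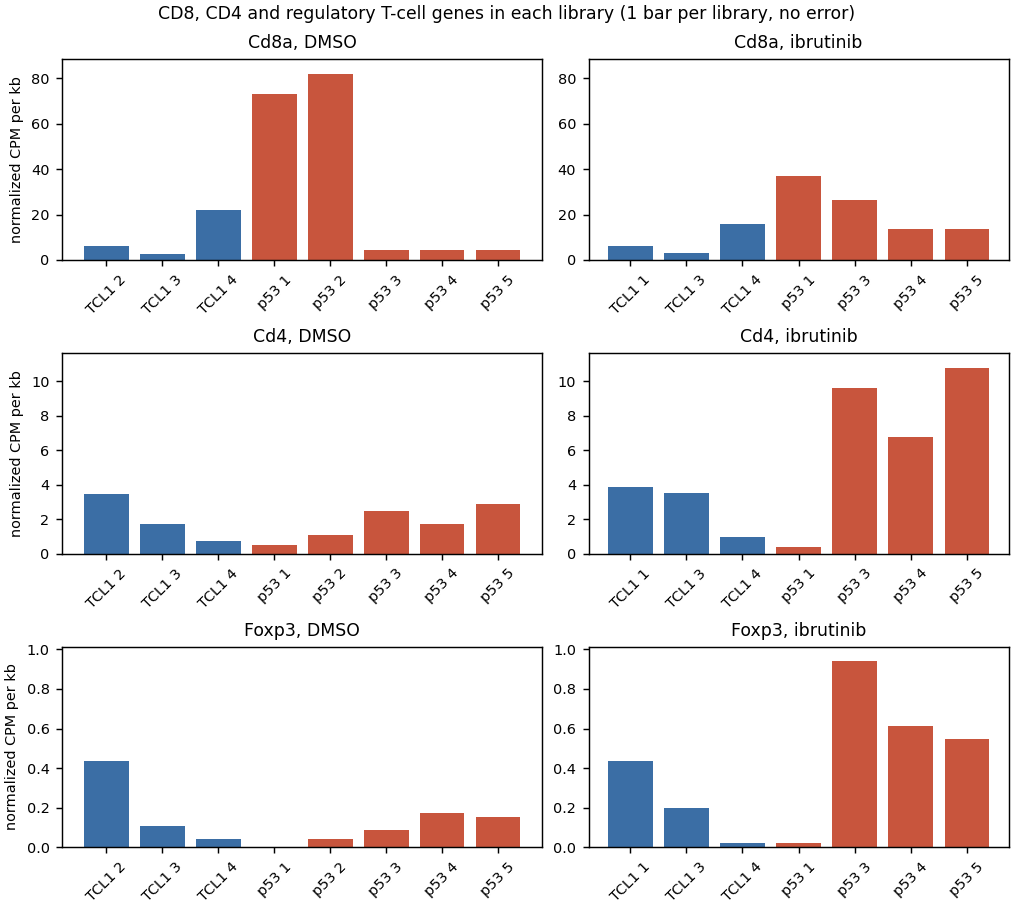
Cd8a, Cd4 and Foxp3 as normalized CPM per kb of exon, 1 bar per library (genotype and replicate number; blue for Eμ-TCL1, red for Eμ-TCL1;p53R172H/+), in DMSO and in ibrutinib. The bars p53 1 and p53 2 in DMSO and p53 1 in ibrutinib are the tallest for Cd8a and among the lowest for Cd4 and Foxp3, and p53 3, 4 and 5 in ibrutinib are the tallest for both Cd4 and Foxp3.

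Other surface receptors of the group were the costimulators Cd28 and Icos, the tumour necrosis factor receptor Cd27, the adhesion receptor Cd2, the CD5 relative Cd6 and the surface glycoprotein Thy1. In DMSO their levels were 25.0 to 667.5 normalized CPM in the T-cell-rich libraries and 3.0 to 166.4 in the others, with log2 changes of 0.52 to 1.56, none past the test. In ibrutinib, Icos had the smallest unadjusted p of all 39 genes. It was 7.5, 5.8 and 7.2 in Eμ-TCL1 and 22.0, 29.6, 17.3 and 23.0 in p53R172H/+, a log2 change of 1.60 ± 0.23 (SE), with an adjusted p of 0.162 in limma. Cd28 was 32.9, 16.1 and 48.7 in Eμ-TCL1 and 199.4, 181.2, 101.6 and 130.7 in p53R172H/+, a log2 change of 2.28 ± 0.40 (limma, adjusted p = 0.165). For both, the T-cell-rich library lay inside the range of the other p53R172H/+ libraries or just above it, unlike for Cd8a. Cd6 and Thy1 had log2 changes of 1.90 and 1.98 without overlap, and Cd2 and Cd27 of 0.94 and 1.48 with overlap.

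The proximal signalling genes and Cd2 followed the receptor genes to a different degree in the 2 tables. Cd2 is carried by mouse B-cells, and Lck and Zap70 are known from chronic lymphocytic leukemia B-cells. Lck was chosen after its values were seen, so the correlations with the B-cell gene Cd79a are a description and test no expectation. In DMSO, Lck was 33.0, 68.0 and 153.3 normalized CPM in Eμ-TCL1 and 643.5, 708.4, 108.5, 97.8 and 116.4 in p53R172H/+. Cd2 was 31.1, 125.0 and 166.4 in Eμ-TCL1 and 355.9, 457.3, 70.5, 70.0 and 80.0 in p53R172H/+. Zap70 was 5.7, 14.4 and 19.0 in Eμ-TCL1 and 149.5, 118.2, 6.2, 5.3 and 7.3 in p53R172H/+. Eμ-TCL1 replicate 3, the library with the least Cd3e (2.8) had more of all 3 genes than replicate 2, and Lck there was 283% of the summed CD3 chain genes against 80.1% to 378% in the 5 other libraries in DMSO and 82.6% to 100% in the T-cell-rich ones. Over the 6 libraries in DMSO outside the T-cell-rich ones, which share 1 scaling, Pearson's r with Cd79a was 0.81 for Lck, 0.77 for Cd2 and 0.34 for Zap70, the 3 highest of the 40 genes, and -0.36 for Cd3e. Over the 6 such libraries in ibrutinib it was -0.09 for Lck, 0.54 for Cd2 and -0.27 for Zap70, r with Cd3e was 0.90 for Lck and 0.89 for Zap70, and Lck was 66.8% to 103% of the summed CD3 chain genes in all 7 libraries. In DMSO, Cd79a was 37.9 in the myeloid-rich Eμ-TCL1 replicate 2, against 259.6 to 380.1 in the others outside the T-cell-rich ones. Lck and Cd2 were also lowest there among these libraries, so their r with Cd79a may rest on that library. Among the others, Lck and Cd2 were highest (153.3 and 166.4) in Eμ-TCL1 replicate 4, where Cd79a was lowest (259.6). Nothing on a B-cell source of Lck or Cd2 RNA is therefore read from these r values. The r without Eμ-TCL1 replicate 2 was not computed.

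Lcp2, the adaptor SLP-76, also serves myeloid cells and was 166.3 normalized CPM in DMSO and 136.3 in ibrutinib in the myeloid-rich Eμ-TCL1 libraries, against 7.3 to 29.9 in the other Eμ-TCL1 libraries. The adaptors Lat, Skap1 and Sh2d1a, the thymocyte protein Themis and the receptor-signal inhibitor Ubash3a had log2 changes of 0.92 to 1.35 in DMSO and 1.38 to 2.28 in ibrutinib. In ibrutinib 6 of the 8 signalling genes had an unadjusted p under 0.05 in limma and none passed after adjustment (smallest adjusted p = 0.234), against 12% and 0% of all genes.

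Of the transcription factors, Tcf7 and Lef1, which mark naive and memory T-cells, had 2 of the 3 largest log2 changes in DMSO. Lef1 was 23.0, 7.8 and 38.1 normalized CPM in Eμ-TCL1 and 227.4, 301.4, 93.9, 26.1 and 99.3 in p53R172H/+, where replicate 4 lay within the Eμ-TCL1 range. Its log2 change was 2.47 ± 0.80 (SE), with an unadjusted p of 0.0139 and an adjusted p of 0.518 in limma, and 1.66 ± 0.72 without the T-cell-rich libraries. Replicates 3 and 5 had high Lef1 without high CD3 RNA, since Lef1 was 327% and 301% of the summed CD3 chain genes there against 32.5% to 98.5% in the other 6 libraries in DMSO. Tcf7 was 64.1, 12.8 and 69.0 in Eμ-TCL1 and 588.9, 912.0, 46.1, 56.1 and 70.7 in p53R172H/+, a log2 change of 2.01 ± 1.13 (limma, adjusted p = 0.645). In ibrutinib, Lef1 was 25.6, 19.4 and 63.9 in Eμ-TCL1 and 214.8, 277.1, 135.8 and 199.2 in p53R172H/+. Tcf7 was 60.9, 35.9 and 96.9 in Eμ-TCL1 and 497.6, 436.7, 200.8 and 254.8 in p53R172H/+. Both were separate between groups, with log2 changes of 2.62 ± 0.42 and 2.42 ± 0.43 and an adjusted p of 0.165 for each.

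Eomes and Tbx21, the factors of cytotoxic lymphocytes, were highest in the T-cell-rich libraries, Eomes at 297.3 and 377.5 in DMSO and 139.7 in ibrutinib against 3.0 to 48.6 in the other 12. Bcl11b and Gata3, which serve T-cell identity, had log2 changes of 1.68 and 1.03 in DMSO and of 2.21 and 1.95 in ibrutinib. Foxp3 behaved like Cd4. It was 2.0, 0.5 and 0.2 normalized CPM in Eμ-TCL1 and 0.0, 0.2, 0.4, 0.8 and 0.7 in p53R172H/+ in DMSO. In ibrutinib it was 2.0, 0.9 and 0.1 in Eμ-TCL1 and 0.1, 4.3, 2.8 and 2.5 in p53R172H/+. The T-cell-rich libraries were thus at or near 0, and replicates 3, 4 and 5 of p53R172H/+ in ibrutinib were above all others of that table. The log2 change was -0.34 ± 0.33 (SE) in DMSO and 0.69 ± 0.59 in ibrutinib, or 1.16 ± 0.41 without the T-cell-rich library (limma, adjusted p = 0.726, 0.622 and 0.470).

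The 2 cytokine receptors differed in where they were highest. Il7r, the interleukin-7 receptor of naive and memory T-cells, was 86.0, 40.2 and 145.7 in Eμ-TCL1 and 146.9, 789.9, 376.4 and 445.3 in p53R172H/+ in ibrutinib. In DMSO it was 125.4, 24.1 and 76.6 in Eμ-TCL1 and 155.4, 143.4, 70.0, 54.1 and 30.6 in p53R172H/+. Il7r was thus highest in replicates 3, 4 and 5 of p53R172H/+ in ibrutinib, whereas in DMSO it was highest in the T-cell-rich libraries. Relative to the summed CD3 chain genes it was lowest in the 3 T-cell-rich libraries (16.7% to 33.7%), against 82.4% to 304% in the other 12. Il2rb, the receptor chain for interleukin-2 and interleukin-15 on CD8 T-cells and NK-cells, was highest in the T-cell-rich libraries of both tables, at 885.5 and 710.4 in DMSO and 529.2 in ibrutinib against 10.8 to 136.1 elsewhere. The log2 changes were 0.31 and 1.42 in DMSO and 2.21 and 2.22 in ibrutinib for Il7r and Il2rb, none past the test.

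The cytotoxic genes were highest in the T-cell-rich libraries of each table, except Gzma in ibrutinib. In DMSO, Klrd1 (CD94, a receptor chain of NK-cells and CD8 T-cells) was 19.3, 4.0 and 13.8 in Eμ-TCL1 and 221.3, 250.2, 11.1, 10.1 and 5.6 in p53R172H/+. Prf1 was 4.3, 3.2 and 20.4 in Eμ-TCL1 and 166.4, 153.2, 3.1, 3.9 and 4.1 in p53R172H/+. Gzmb was 1.3, 0.4 and 0.6 in Eμ-TCL1 and 23.3, 54.2, 0.0, 0.2 and 0.1 in p53R172H/+. Outside the T-cell-rich libraries Gzmb was lower in all p53R172H/+ libraries than in any Eμ-TCL1 library, with a log2 change of -0.65 ± 0.23 (SE) there (limma, unadjusted p = 0.0278, adjusted p = 0.391) and 1.37 ± 1.43 with all libraries. Gzma stayed low throughout, at 1.2, 0.8 and 0.9 in Eμ-TCL1 and 5.1, 6.4, 1.9, 1.2 and 2.1 in p53R172H/+, a log2 change of 0.99 ± 0.43 with an unadjusted p of 0.0494 and an adjusted p of 0.609.

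In ibrutinib, Klrd1 was 10.5, 5.3 and 19.7 in Eμ-TCL1 and 177.1, 90.3, 45.3 and 36.5 in p53R172H/+. Prf1 was 5.1, 2.8 and 19.0 in Eμ-TCL1 and 90.2, 24.6, 10.9 and 16.3 in p53R172H/+. Klrd1 had no overlap and the largest log2 change of the 39 genes (2.67 ± 0.62 SE; limma, adjusted p = 0.231), whereas Prf1 overlapped. Gzmb was 1.3, 0.1 and 0.0 in Eμ-TCL1 and 7.1, 0.8, 0.1 and 0.3 in p53R172H/+. Gzma was 1.3, 0.1 and 0.2 in Eμ-TCL1 and 1.2, 1.1, 0.8 and 0.7 in p53R172H/+. The log2 changes of Gzma (0.42) and Gzmb (0.65) were among the smallest 3, together with that of Nkg7 (0.04). Nkg7, a protein of cytotoxic granules, was 21.6, 2.5 and 6.8 in Eμ-TCL1 and 53.2, 7.6, 2.6 and 2.5 in p53R172H/+, and its log2 change was -0.84 without the T-cell-rich library. Gzmk was 3.6, 3.3 and 3.6 in Eμ-TCL1 and 42.6, 33.7, 10.8 and 13.8 in p53R172H/+, and Fasl had a log2 change of 1.63.

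The lineage of the cytotoxic RNA was read from the NK-cell markers Ncr1, Klrb1c, Klrk1, Klra8, Klre1 and Klrd1, all 6 listed in both tables. Their summed level was 390.9, 512.6 and 291.9 normalized CPM in the T-cell-rich libraries and at most 125.2 in the other 12. Klra8 was 49.6, 101.1 and 30.3 in the T-cell-rich libraries against at most 6.8 elsewhere, Klre1 was 64.5, 96.1 and 41.9 against at most 8.6, and Klrk1 was 53.4, 63.4 and 41.7 against at most 16.9. Ncr1, a receptor that defines NK-cells, was listed at 0.0 in all 3 T-cell-rich libraries and at 0.0 to 0.9 in the others. Klrb1c, also near 0, was 2.1 and 1.8 in the T-cell-rich libraries in DMSO against at most 1.5 in the others. In ibrutinib it was 0.9 in the T-cell-rich library and at most 2.7 in the others. Thus 4 of the 6 markers, Klrd1 included, were highest in the T-cell-rich libraries of each table, Klrb1c only in DMSO, and the defining marker Ncr1 in neither. The part of NK-cells in these values was not tested further.

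The secreted and helper genes were few. Ccl5, a chemokine of cytotoxic T-cells, was 14.1 to 867.6 in DMSO and 21.2 to 417.8 in ibrutinib with overlap between genotypes. Ifng (interferon γ) was 0.4, 0.2 and 0.2 in Eμ-TCL1 and 1.3, 1.6, 0.4, 0.1 and 0.3 in p53R172H/+ in DMSO, a log2 change of 0.38 ± 0.31 (SE; limma, adjusted p = 0.681). Cd40lg was 0.8, 0.3 and 0.1 in Eμ-TCL1 and 0.0, 0.1, 0.9, 0.5 and 0.8 in p53R172H/+ in DMSO. It was 1.1, 0.3 and 0.1 in Eμ-TCL1 and 0.0, 2.1, 1.9 and 3.9 in p53R172H/+ in ibrutinib. Like Cd4 and Foxp3, Cd40lg was at or near 0 in the T-cell-rich libraries and highest in replicates 3, 4 and 5 of p53R172H/+ in ibrutinib.

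Across the whole group, the genotype comparison in DMSO gave 38 positive and 2 negative log2 changes with a median of 0.99, beside a median of 0.04 over all genes tested. None of the 40 passed the test (limma, smallest adjusted p = 0.518), against 0.0121% of all genes, and 2 had an unadjusted p under 0.05 (Lef1 and Gzma), a share below the background of 8.17%. None was higher in every p53R172H/+ library than in every Eμ-TCL1 library, against 3.52% of all genes. Without the T-cell-rich libraries 33 of the 40 log2 changes were negative, with a median of -0.51 beside -0.02 over all genes. Again none passed the test, against 0.00607% of all genes. There were 3 with an unadjusted p under 0.05 (Nkg7, Gzmb and Ccl5, all lower in p53R172H/+), near the background of 11.2%, and 8 without overlap and lower in p53R172H/+ (Cd3g, Icos, Tbx21, Eomes, Gzmb, Gzmk, Nkg7 and Ccl5), beside a background of 7.94%. The positive median in DMSO therefore rested on 2 of 5 p53R172H/+ libraries.

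The comparison in ibrutinib gave a positive log2 change for all 39 genes, with a median of 1.95 beside -0.05 over all genes. None passed the test (limma, smallest adjusted p = 0.162), as no gene of the table did (0%). There were 24 with an unadjusted p under 0.05, all higher in p53R172H/+, beside 12% of all genes, and 21 without overlap and higher in p53R172H/+, beside 6.68%. Without the T-cell-rich library 38 of 39 log2 changes were positive with a median of 1.61, 25 had an unadjusted p under 0.05 beside 9.74%, 24 had no overlap beside 8.19%, and again none passed after adjustment beside 0%. These genes are co-expressed in the same cells and their p-values are not independent of each other. The B-cell marker sums were 524.5, 1395.8 and 1196.7 in p53R172H/+ replicates 3, 4 and 5 against 442.1, 3093.0 and 2497.6 in Eμ-TCL1. The lowest of these was in the myeloid-rich Eμ-TCL1 replicate 1, and only through that library did the sums overlap between genotypes. Btk was lower in every p53R172H/+ library (at most 44.0) than in every Eμ-TCL1 library (at least 44.4). Neither the part of B-cell content in this result nor that of sex was tested. The labels do not state which animal each library came from, so all p-values measure the spread between these samples, which may in part be technical.

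**Figure D3:**
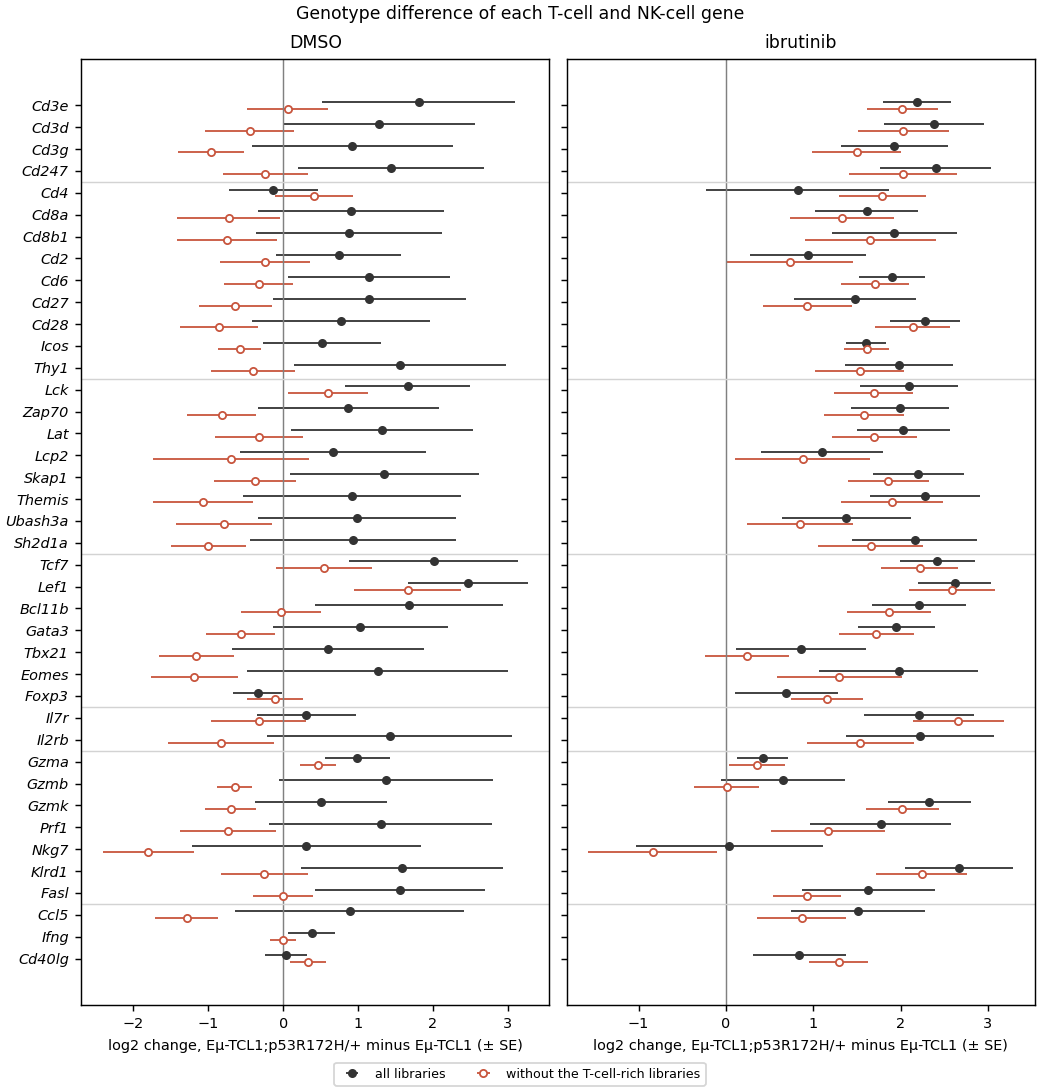
Log2 change from Eμ-TCL1 to Eμ-TCL1;p53R172H/+ of each gene (points, with bars of 1 SE from limma), with all libraries (black) and without the T-cell-rich libraries (red, open), in DMSO (left) and in ibrutinib (right). In DMSO the open points lie mostly left of 0 (33 of 40), whereas in ibrutinib they lie right of 0 for 38 of 39 genes.

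Whether the genotype difference itself differed between ibrutinib and DMSO was tested as an interaction over the 15 libraries, in which a scaling factor per table cancels. The libraries were treated as independent. Deviations of same-numbered libraries of a genotype correlated at 0.75 to 0.84 across treatments, except for p53R172H/+ replicate 3 (-0.11). The SEs and p-values of the interaction do not take such pairing into account. Of the 39 genes 36 had a positive interaction with a median of 0.72 on the log2 scale, beside -0.07 over all genes, and none passed (limma, adjusted p = 1 for each, beside 0%). None had an unadjusted p under 0.05 either, beside 0.523%. The largest were Il7r (1.91 ± 0.99 SE), Gzmk (1.83 ± 1.10) and Cd28 (1.51 ± 1.42), and the 3 negative ones were Gzmb (-0.72 ± 1.79), Gzma (-0.57 ± 0.54) and Nkg7 (-0.27 ± 2.06). Without the T-cell-rich libraries the median was 2.02 beside -0.05, 22 genes had an unadjusted p under 0.05, all positive, beside 7.22%, and none passed in limma (smallest adjusted p = 0.19, Icos, beside 0%). These values are higher by construction, and nothing is read from them. The libraries left out are high in most of these genes. They are 2 of 5 p53R172H/+ libraries in DMSO but 1 of 4 in ibrutinib. Cd28 was then 3.0 ± 0.72, Il7r 2.99 ± 0.88 and Cd3e 1.97 ± 0.71. Levels in ibrutinib were not tested against those in DMSO within a genotype, because the tables were scaled separately.

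The share of each gene in the CD3 chain RNA of its own library does not depend on the scaling and can be set side by side across tables. Cd4 was 0.311% to 0.513% of the sum of Cd3e, Cd3d and Cd3g in the T-cell-rich libraries, 3.23% and 4.70% in Eμ-TCL1 replicate 4, and 14.5% to 54.2% in the other 10. Cd8a was 41.4% and 34.7% of that sum in the T-cell-rich libraries in DMSO and 31.0% in that in ibrutinib, the lowest shares of each table, so it was the share of Cd4 that set them apart and not a raised share of Cd8a. Within p53R172H/+ replicates 3, 4 and 5, it was 35.2%, 26.0% and 35.5% in DMSO and 14.5%, 21.6% and 28.7% in ibrutinib, Cd8a was 53.7%, 58.1% and 49.7% in DMSO and 36.2%, 39.0% and 33.0% in ibrutinib, and Nkg7 was 8.71%, 15.5% and 8.48% in DMSO and 2.85%, 2.06% and 1.64% in ibrutinib. Eμ-TCL1 replicates 3 and 4 had 42.1% and 85.4% of Cd8a in DMSO and 41.9% and 68.9% in ibrutinib. Their share of Nkg7 was 19.2% and 27.4% in DMSO and 9.62% and 8.19% in ibrutinib. In p53R172H/+ replicate 1 the Nkg7 share was 28.7% in DMSO and 12.2% in ibrutinib. A lower Nkg7 share in ibrutinib was thus not particular to p53R172H/+ replicates 3, 4 and 5. These are description only. Whether same-numbered libraries come from 1 mouse is not stated, and for p53R172H/+ replicate 3 the sex-linked genes differed between the tables, with Xist at 1491.3 and Ddx3y at 0.1 normalized CPM in DMSO and at 1.0 and 82.1 in ibrutinib, so its values in DMSO and ibrutinib are not a pair.

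The relation to Btk, the target of ibrutinib and a gene of B-cells and myeloid cells but not of T-cells, was the last comparison. Btk was 71.4, 95.4 and 64.2 normalized CPM in Eμ-TCL1 and 3.6, 4.2, 77.8, 67.3 and 83.2 in p53R172H/+ in DMSO. In ibrutinib it was 60.3, 89.1 and 44.4 in Eμ-TCL1 and 1.4, 22.3, 44.0 and 31.3 in p53R172H/+. The T-cell-rich libraries formed a cluster of their own, with the least Btk, and correlations were taken only over the 6 other libraries of each table. Between Cd3e and Btk, Pearson's r was -0.83 in DMSO (two-sided exact permutation test over 720 orders, p = 0.0347, and 0.0347 after adjustment over both tables) and Spearman's rho was -0.71 (exact permutation p = 0.136, adjusted 0.136). In ibrutinib r was -0.91 (exact permutation p = 0.0153, adjusted 0.0306) and rho was -0.94 (exact permutation p = 0.0167, adjusted 0.0333). Without the 2 libraries farthest from the median of Btk, r was -0.14 in DMSO and -0.67 in ibrutinib over 4 libraries, so the relation in DMSO rested on those 2. With 1 library left out, r passed the exact permutation test in DMSO only without p53R172H/+ replicate 5 (-0.96), and in ibrutinib only without Eμ-TCL1 replicate 4 (-0.95) or p53R172H/+ replicate 4 (-0.94) or 5 (-0.92). Each genotype has only 3 of these libraries per table, too few for a value within genotype, and in ibrutinib Cd3e was higher in all 3 p53R172H/+ libraries than in the Eμ-TCL1 ones, so genotype and Btk level cannot be told apart there.

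Btk does not follow B-cell RNA alone, since it was 71.4 and 60.3 in the myeloid-rich Eμ-TCL1 libraries where Cd79a was 37.9 and 42.7. With Cd79a in place of Btk, r with Cd3e was -0.36 in DMSO and -0.31 in ibrutinib (exact permutation p = 0.376 and 0.536, both 0.536 after adjustment). Over the same 6 libraries, 33 of 40 genes had a negative r with Btk in DMSO, with a median of -0.65, and 39 of 39 in ibrutinib, with a median of -0.93. The values share libraries, the Btk values and their scaling, and are given as a description. The lowest in DMSO were Skap1 (-0.91), Cd6 (-0.86) and Cd3e (-0.83), and the highest Cd4 (0.37), Gzmk (0.24) and Cd40lg (0.19). In ibrutinib the lowest were Cd3g, Zap70 and Skap1 (-0.98 each), and the highest Nkg7 (-0.01), Gzmb (-0.20) and Gzma (-0.50). The genes least like Cd3e over these libraries were Cd2, Gzmk and Zap70 in DMSO (r with Cd3e of -0.19, -0.17 and -0.12) and Nkg7, Gzmb and Cd2 in ibrutinib (-0.12, 0.20 and 0.39), and those most like it were Tcf7, Bcl11b and Skap1 in DMSO (0.95, 0.94 and 0.88) and Gata3, Gzmk and Klrd1 in ibrutinib (0.99, 0.98 and 0.97).

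**Figure D4:**
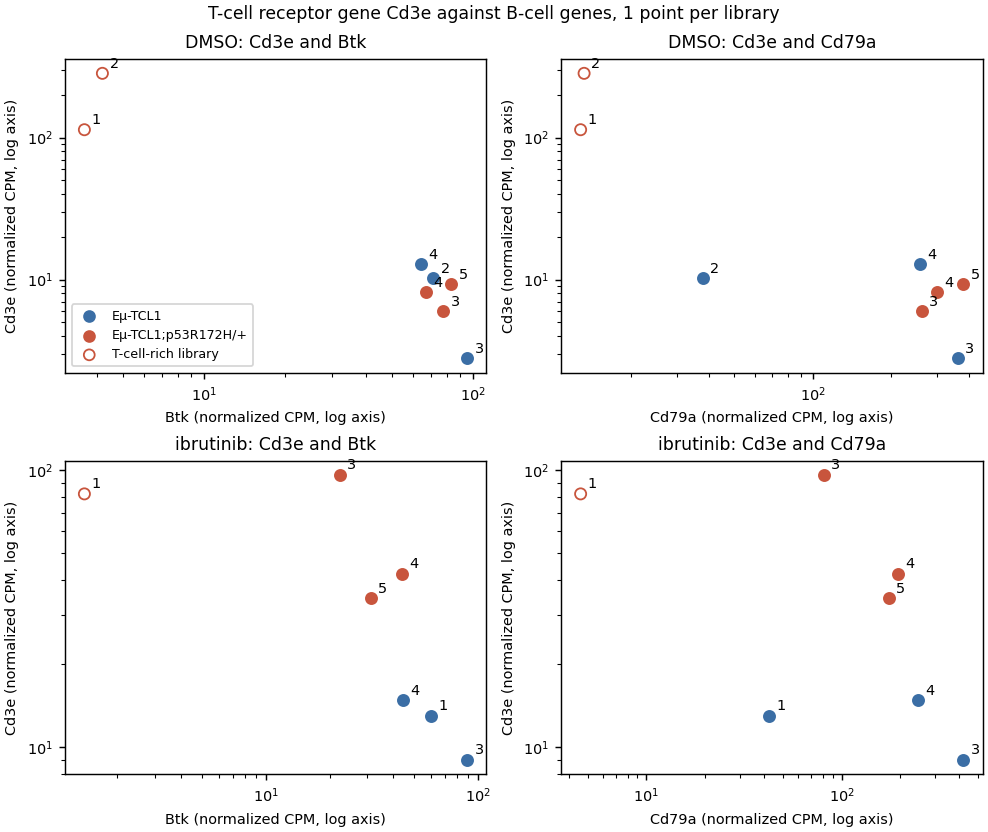
Cd3e against Btk (left) and against Cd79a (right), in normalized CPM on log axes, 1 point per library labelled with its replicate number, in DMSO (top) and in ibrutinib (bottom); open points are the T-cell-rich libraries. The open points lie at the upper left in all 4 panels, and the Eμ-TCL1 points low in Cd79a (replicate 2 in DMSO, replicate 1 in ibrutinib) keep Btk at 71.4 and 60.3.

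Other genes of T-cell and NK-cell receptors and signalling were counted from a list of 75, of which 67 were listed in DMSO and 68 in ibrutinib. In DMSO 57 had a positive and 10 a negative log2 change with a median of 0.74, 4 had an unadjusted p under 0.05 (1 higher and 3 lower in p53R172H/+) and none passed the test (limma, smallest adjusted p = 0.503), beside a median of 0.04, 8.17% and 0.0121% over all genes. Without the T-cell-rich libraries 42 were negative, with a median of -0.37. The 3 largest in size were Trbc1, a constant gene of the T-cell receptor β chain (2.53 ± 1.44 SE), the NK receptor Klre1 (2.32 ± 1.52) and Zbtb7b (-2.32 ± 0.80), the ThPOK factor of CD4 T-cells, which was 102.9, 82.3 and 78.0 in Eμ-TCL1 and 3.6, 5.7, 28.7, 44.0 and 40.9 in p53R172H/+ without overlap. Zbtb7b is not read as a measure of CD4 T-cells here. In the same Eμ-TCL1 libraries Cd4 was 13.9, 6.9 and 3.0. Outside the T-cell-rich libraries, r of Zbtb7b with Cd3e was 0.06 in DMSO and -0.85 in ibrutinib. In ibrutinib 58 were positive with a median of 0.95, 25 had an unadjusted p under 0.05 (24 higher and 1 lower) and none passed in limma (smallest adjusted p = 0.16), beside a median of -0.05, 12% and 0% over all genes. The 3 largest were Trbc1 (3.19 ± 0.79), the NK receptor chain Klrc1 (2.65 ± 1.07) and Trac, the α chain constant gene (2.64 ± 0.36). Trac was 8.2, 5.5 and 14.0 in Eμ-TCL1 and 76.9, 71.3, 37.2 and 60.4 in p53R172H/+, without overlap. In the interaction none of 67 passed in limma and 1 had an unadjusted p under 0.05, beside 0% and 0.523% of all genes, and the largest were Cd226 (1.73 ± 1.41) and Trbc2 (1.63 ± 0.99).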

How the data were processed

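Signal values were deposited by the authors as 2 tables of normalized CPM, 1 for DMSO and 1 for ibrutinib, rounded to 0.1. The authors' submitted processing notes name TopHat2 2.0.12, SAMtools 0.1.19, HTSeq and edgeR. The authors aligned reads to the mouse genome GRCm38, counted them per GENCODE gene, left out genes with low counts, and scaled them with edgeR factors set separately within each table. Whole reads could not be recovered, so no depth per library can be stated and values carry no counting interval. Because the scaling uses an effective library size, column totals differed between libraries, from 756625 to 1359650, around geometric means of 999990 in DMSO and 999995 in ibrutinib.

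Genotypes were compared within each table with limma 3.58.1 (R 4.3.3), by its trended moderated test on log2(value + 1) over all listed genes, two-sided, with Benjamini-Hochberg adjustment at 0.05. A fold change on this scale understates the change of low genes. The interaction was fitted over 15869 genes listed in both tables. The steps were tested on simulated data. Correlations used exact permutation tests (scipy 1.17.1, Python 3.11.15), and figures matplotlib 3.10.9. Positions and exon lengths came from a GENCODE annotation of GRCm38 other than the release used for counting, and upstream sequences from RefSeq (GRCm38.p6).

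The genes and marker lists were chosen with earlier results of these data known, as were the 3 T-cell-rich libraries. Lineage and effector markers, the 3 largest log2 changes in each direction, and the 3 highest and lowest correlations were named by rule. Other genes given with values (Icos, Cd27, Thy1, Lck, Lcp2, Lat, Themis, Ubash3a, Sh2d1a, Eomes, Tbx21, Il2rb, Fasl, Ccl5, and in the closing section Trbc2, Ctla4 and the γ chain genes) were chosen after their values were seen. Some genes are not reported here, and the B-cell marker sum is over 9 markers. Of the marker lists, Emr1, Hbb-b1, Trdc and Jchain were not matched in DMSO. Alternatives were pseudocounts of 0.1 and 5, a minimum mean of 5, quantile normalization, sample weights, the replicate number as a block, each library left out in turn, and sets of libraries left out.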

Additional observations from a re-analysis of the deposited data

Results flagged for a closer look

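In ibrutinib, the T-cell-rich replicate 1 of Eμ-TCL1;p53R172H/+ lay far above the other 3 libraries of its group for 5 cytotoxic genes or receptors. Tbx21, a transcription factor of cytotoxic lymphocytes, was 27.0 normalized CPM against 2.9 to 6.9. Il2rb, an interleukin receptor chain, was 529.2 against 60.7 to 136.1. Gzmb was 7.1 against 0.1 to 0.8, Nkg7 was 53.2 against 2.5 to 7.6, and Fasl was 41.7 against 3.7 to 6.4. In each the gap to the nearest library exceeded Dixon's 95% limit for 4 samples. Chance alone passes this limit in about 1 in 20 groups, and 5 of 79 groups passed it, so the number of such cases is near that share. All 5 were in the T-cell-rich replicate 1, which was set apart by the level of these same genes. The genes are co-expressed, so the groups are not independent and nothing is concluded from this count.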

How the results depend on the processing

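None of the T-cell and NK-cell genes passed the adjusted threshold in limma under any alternative, so the values below concern direction. In DMSO, log2 changes turned with sample quality weights to -0.52 for Cd3d, -0.83 for Cd3g, -0.10 for Cd247, 0.98 for Cd4, -1.01 for Cd8a, -1.05 for Cd8b1, 0.20 for Foxp3 and -0.96 for Prf1. Without the 3 T-cell-rich libraries they were -0.45, -0.96 and -0.24 for Cd3d, Cd3g and Cd247, 0.41 for Cd4, -0.73 and -0.75 for Cd8a and Cd8b1, -0.65 for Gzmb, -0.74 for Prf1, -0.25 for Klrd1 and 0.00 for Ifng. Without the 2 myeloid-rich libraries as well, a choice made after seeing the data, they were -0.51, -1.13 and -0.16 for Cd3d, Cd3g and Cd247, 0.88 for Cd4, -0.84 and -0.88 for Cd8a and Cd8b1, 0.28 for Foxp3, -0.45 for Gzmb and -1.02 for Prf1. Cd40lg was -0.04 with a pseudocount of 0.1. Leaving out 1 library at a time gave -0.61 (Eμ-TCL1 replicate 4) to 0.34 (Eμ-TCL1 replicate 2) for Cd4, -0.61 to 0.05 for Foxp3 and -0.11 to 0.24 for Cd40lg, with the same libraries at the ends. The median over the 40 genes was -0.19 with sample weights, -0.51 and -0.36 without the sets of libraries, and 0.32 to 1.49 with 1 library left out.

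In ibrutinib the median was 1.55 to 2.35 with 1 library left out, and of the 15 genes recomputed singly only Nkg7 turned, to -0.84 without the T-cell-rich library and -0.13 without the myeloid-rich library too, with a range of -0.84 (p53R172H/+ replicate 1) to 0.74 (Eμ-TCL1 replicate 1). In the interaction Gzmb was 0.55 with a pseudocount of 0.1, 0.46 with weights, 0.66 and 0.83 without the sets of libraries, and 0.36 over replicate numbers in both tables, while Nkg7 was 1.54 with weights, 0.96 and 1.45 without the sets, and 0.95 over numbers in both tables. Gzma was 0.15 without both sets. Leaving out 1 library gave -1.36 to 0.19 for Gzmb, -1.15 to 0.58 for Nkg7, -0.14 to 1.20 for Cd3e, -0.06 to 1.36 for Cd8a and -0.26 to 1.24 for Prf1. Over all 39 genes in ibrutinib, 38 log2 changes were positive without the T-cell-rich library and 37 without the myeloid-rich library too. The cause was not tested for any of these.

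The correlation of Cd3e with Btk in DMSO missed the threshold with quantile normalization (r = -0.75), without the 2 farthest libraries (-0.14) and with Cd79a (-0.36), and was -0.96 to -0.53 with 1 library left out, weakest without Eμ-TCL1 replicate 3. In ibrutinib it missed it on linear values (-0.74), without the 2 farthest (-0.67) and with Cd79a (-0.31), and was -0.95 to -0.82 with 1 left out.

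With a replicate block, Cd4 in DMSO was 0.00 and Nkg7 in the interaction was 0.39, and the medians were 0.81 in DMSO, 2.13 in ibrutinib and 0.91 in the interaction. The numbers do not pair the genotypes, since deviations of same-numbered libraries correlated at -0.20 to 0.28. Across treatments within a genotype they correlated at 0.75 to 0.84, except for p53R172H/+ replicate 3 at -0.11. The unknown depth and the rounding to 0.1 limit what can be read from genes near 0, among them Foxp3, Cd40lg, Gzma, Gzmb and Ifng.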

Other observations

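The 2 constant genes of the T-cell receptor β chain differed in order between libraries. Trbc1 was 339.2, 271.9 and 234.2 normalized CPM in the T-cell-rich libraries (p53R172H/+ replicates 1 and 2 in DMSO and replicate 1 in ibrutinib), where Trbc2 was 96.2, 73.8 and 78.6. In the other 12 libraries the order was the opposite, with Trbc1 at 2.2 to 54.7 and Trbc2 at 10.3 to 128.6, and Trbc2 above Trbc1 in each. Both genes are near-identical in their coding part, and how reads shared between them were counted was not examined.

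The γ chain constant genes Tcrg-C1, Tcrg-C2 and Tcrg-C4 were 19.8, 31.2 and 13.5 in replicate 1 and 30.9, 39.1 and 13.6 in replicate 2 of p53R172H/+ in DMSO, and 11.8, 14.5 and 10.1 in replicate 1 in ibrutinib. In the other 12 libraries they were between 0.0 and 1.8. Trdc, the δ chain constant gene, was not matched.

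Of the 4 regulatory T-cell markers, Ctla4 made up most of the summed level in Eμ-TCL1 replicates 3 and 4, where that sum was 123.7 and 111.9 in DMSO and 110.1 and 109.1 in ibrutinib. Ctla4 itself was 109.8 and 97.8 in DMSO and 89.3 and 91.0 in ibrutinib there, against 3.3 to 25.5 in the other 11 libraries. Foxp3 was 0.1 to 0.9 in these 4 libraries.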
